A study of Mus musculus with 48 samples.

Results

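The comparison is of O4+ cells with CD11B+ cells from the brains of PBS-injected mouse pups at postnatal day (P) 5. Its members were chosen from the labels alone, as the arrays of these cell types, this treatment and this age, and they are 12 of the 48 arrays of the series, 6 of each cell type. The whole series holds 8 groups of 6 arrays, since each cell type was taken at P5 and at P10 from pups given PBS or IL1B (10 ng/g). All pups were male, of the strain the labels call swiss and the methods call OF1, and no genetic change is named in either. Injections into the peritoneum ran from P1 to P4, with a last one at P5, and the P5 brains were taken some hours later, for which labels and methods give different intervals. Each sample was made from pooled brains without cerebellum and olfactory bulbs. Magnetic beads took out O4+ cells first and CD11B+ cells next, so the CD11B+ cells came from what the O4 step had left behind. The study gives the same pups as the source of both cell types, but the labels do not say which O4+ and CD11B+ arrays share a pool, and the arrays were compared unpaired. RNA was labelled with Cy3 and read on 1-colour Agilent arrays of 55681 probes. Values are normalized signals on the log2 scale, and every difference is the O4+ mean minus the CD11B+ mean with its standard error (6 arrays against 6), so that 1.00 stands for a doubling in O4+ and a negative value for a higher signal in CD11B+.

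The O4 antibody binds sulfatide, a sulfated galactolipid that oligodendrocyte progenitors begin to show late in their development and keep as premyelinating and myelinating cells. CD11B is the integrin alpha M chain, the product of Itgam, which pairs with the beta 2 chain on microglia, other macrophages and neutrophils. In the first postnatal week of the mouse, most cells of the oligodendrocyte lineage have not yet made myelin, while microglia spread through the brain, divide and clear debris.

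Of all probes, the part read well above background ranged from 55.8% to 62.5% over the O4+ arrays (median 59.8%) and from 53.9% to 59.8% over the CD11B+ arrays (median 57.5%). Before normalization, the 75th percentile of the processed signal was lower on the CD11B+ arrays (478 to 573, median 534) than on the O4+ arrays (632 to 820, median 786). CD11B+ replicate 5 stood apart from the other 5 CD11B+ arrays in marker genes of other cell types. Its summed signal of 10 astrocyte markers was 48500, against 8130 to 17000 on the other CD11B+ arrays, and its summed signal of 6 erythroid markers was 195000, against 67000 to 85700. It was also the array with the highest CD11B+ sum of oligodendrocyte progenitor genes, 73700 where the next array had 36800. Of the 12 arrays, it was the only one on its slide. It shared a scan day with 4 O4+ arrays, while the other 2 O4+ arrays were scanned with the other 5 CD11B+ arrays. Among the 12 arrays, a single slide carried both cell types, with O4+ replicates 3 and 6 and CD11B+ replicate 6.

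Over all probes, the cell types differed widely and in both directions. By a rule of an adjusted p under 0.05 in limma and group medians at least 1.5-fold apart, 11021 probes (19.8%) were higher in O4+ cells and 12157 (21.8%) in CD11B+ cells, together 41.6%. With medians at least 4-fold apart, 4593 probes (8.25%) were higher in O4+ and 3366 (6.05%) in CD11B+. For 23633 probes (42.4%), the 6 arrays of one cell type all lay above the 6 of the other, where chance gives 0.216%. A setting with the normexp background model added an offset of 50 to each signal, which narrows the ratios of dim probes. Under it, the 1.5-fold counts fell to 7445 in O4+ and 7628 in CD11B+, and the 4-fold counts to 2046 and 1512. The parts of model and offset were not tested apart. Counted as 24099 genes with 1 probe each, 5767 (23.9%) were higher in O4+ and 5538 (23.0%) in CD11B+, so that 46.9% were called either way. By the 4-fold rule these were 2547 (10.6%) and 1762 (7.31%), together 17.9%, and 12649 genes (52.5%) had groups that did not overlap. The median difference over all genes was -0.02, but quantile normalization gives all arrays the same distribution and so favours a small median. With arrays scaled to their 75th percentile, the median over all probes was -0.35, against -0.05 in the main setting. Of the called probes, 40.7% were then higher in O4+, against 47.5%. Signs were also read inside the batches, which are parts of the same 12 arrays that picked the probes and so no independent check: on the slide with both cell types 10955 of the 11021 O4+ probes and 12101 of the 12157 CD11B+ probes kept their sign, within scan 1 this was 10732 and 11455, and within scan 2 it was 11014 and 12157. With the slide as a block, 9073 and 10233 probes were called, and with the scan day as a block 10553 and 11265. In every fit with a block, the fold rule kept the medians of all 12 arrays, and only the adjusted p came from the blocked fit. The difference fitted with the slide as a block rests on the slide with both cell types, which holds a single CD11B+ array. Scan 1 sets 4 O4+ arrays against CD11B+ replicate 5 alone, and without that array 11307 and 13005 probes were called.

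**Figure D1:**
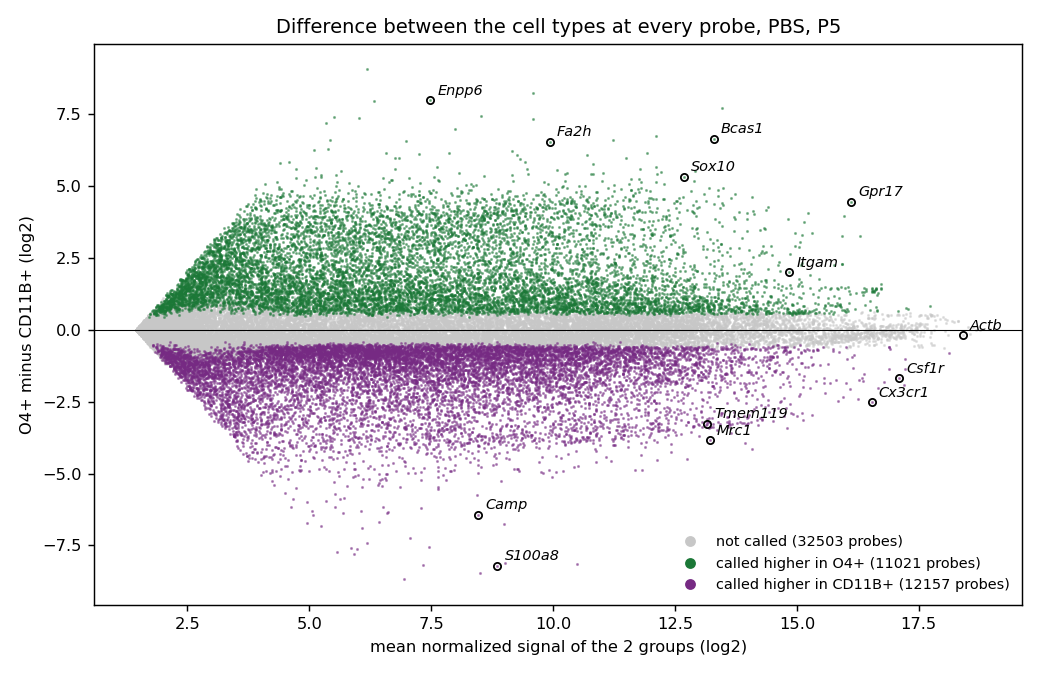
Each point is 1 of 55681 probes, with the mean normalized signal of the 2 groups (log2) on the horizontal axis and the O4+ minus CD11B+ difference (log2) on the vertical axis; green and purple points passed the 1.5-fold rule. Bcas1 at 6.65 lies far above and S100a8 at -8.21 far below the zero line, while Actb at -0.19 is close to it. Enpp6 is placed by its background signal in CD11B+ cells, so its height is not a measured difference.

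The genes behind the 2 sort antigens gave the first check of the labels. Ugt8a, which makes the galactolipid galactosylceramide, had a log2 signal of 12.17 to 12.40 (median 12.33) on the O4+ arrays and 5.73 to 6.82 (median 6.37) on the CD11B+ arrays. Gal3st1, which adds the sulfate that completes sulfatide, read 12.92 to 13.09 (median 13.04) against 7.11 to 7.94 (median 7.59). Every O4+ array was above every CD11B+ array for both enzymes, with differences of 5.94 ± 0.16 (adjusted p 2.97e-11) and 5.45 ± 0.11 (8.98e-12). Fa2h, which supplies the hydroxylated fatty acid of myelin galactolipids, differed by 6.54 ± 0.14 (8.78e-12). Itgb2, the partner chain of CD11B, was lower on every O4+ array, at 7.14 to 7.68 (median 7.53) against 11.16 to 11.38 (median 11.23), a difference of -3.77 ± 0.09 (1.49e-11).

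Itgam itself was read by 3 probes that did not share a direction. On the mm9 build of the array files, the probe at chr7:135260275-135260334 read 7.12 to 7.70 (median 7.65) in O4+ and 11.09 to 11.28 (median 11.17) in CD11B+ cells, a difference of -3.62 ± 0.09. The probe at chr7:135212140-135212199 differed by -2.90 ± 0.11. Both place Itgam with Itgb2 on the CD11B+ side. The remaining probe, at chr7:135261755-135261814, lies downstream of both and was higher on every O4+ array, by 2.00 ± 0.06, and it kept that direction at P10 (2.16) and with IL1B (1.18). Of the 5 sort antigen genes, 4 were called higher in O4+ with this last, brightest probe standing for Itgam. Siglech, a lectin of microglia, showed a similar split, with 0.39 for its brightest probe and -3.22 and -1.91 for the others, and among the genes named here Fgfr1, Gapdh, Itga6 and Tlr4 had probes of unlike sign, none of them called in opposite directions. Over the array, 215 of the 12238 genes with a called probe had probes called in both directions.

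Transcription factors that set the oligodendrocyte fate were among the clearest O4+ genes. Of 14 listed factors, 12 were called higher in O4+ and none in CD11B+ (23.9% and 23.0% of all genes), with a median difference of 4.65. Sox10, which drives myelin genes, read 15.27 to 15.46 (median 15.31) on O4+ arrays and 9.61 to 10.48 (median 9.99) on CD11B+ arrays, a difference of 5.33 ± 0.14 (2.21e-11). Olig2, needed to form the lineage, read 13.83 to 14.09 (median 14.07) against 8.76 to 9.73 (median 9.07), a difference of 4.86 ± 0.15 (9.1e-11). The O4+ arrays were tightly grouped for both factors and none came near a CD11B+ array. Olig1 differed by 4.73 ± 0.18. Nkx6-2, Myrf and St18 were not well above background on any CD11B+ array. The 2 factors that were not called were Tcf7l2 (-0.26) and Zfp488, and both passed at P10, where all 14 were called higher in O4+.

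All 13 progenitor genes were higher in O4+ cells, with a median of 4.59. Pdgfra, the receptor for the mitogen PDGF-A, read 15.80 to 16.15 (median 15.93) against 10.95 to 11.72 (median 11.37), a difference of 4.59 ± 0.13 (4.3e-11). Cspg4, which encodes the NG2 proteoglycan, differed by 4.42 ± 0.15. Ptprz1, a receptor phosphatase of progenitors, had the widest CD11B+ spread of these genes, 11.61 to 13.49 (median 11.83), since replicate 5 lay far above the others. Its O4+ arrays were still all higher, at 15.99 to 16.26 (median 16.15), and the difference was 4.04 ± 0.28 (6.99e-08). The list ran from Ncan at 3.16 to Tnr at 5.57, both matrix proteins of the young brain.

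Genes of the premyelinating stage made up some of the largest differences. Of 12, 11 were called higher in O4+ and none in CD11B+, with a median of 4.15. Gpr17, a receptor carried for a short time by cells between progenitor and myelinating stage, read 18.27 to 18.42 (median 18.33) against 13.41 to 14.16 (median 13.97), a difference of 4.46 ± 0.12 (3.8e-11). Bcas1, a marker of oligodendrocytes that are just starting to myelinate, differed by 6.65 ± 0.11 (2.56e-12), with 16.48 to 16.74 (median 16.58) against 9.57 to 10.21 (median 10.01). Enpp6, a choline phosphodiesterase of newly formed oligodendrocytes, was well above background on all 6 O4+ arrays, at 11.20 to 11.64 (median 11.53), and on 0 of 6 CD11B+ arrays. It was at least 198-fold higher in O4+ cells, where the bound takes, for each CD11B+ array, the higher of the probe's own signal and the lowest signal that counted as well above background. Cd9, a membrane protein that many cell types carry, was the member not called (0.54).

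Myelin genes were more uneven than the progenitor genes. Of 17, 15 were called higher in O4+ and 2, Aspa (-2.72) and Trf, in CD11B+, with a median of 3.00 and quartiles of 1.52 and 5.26. Mag, an adhesion protein of the inner myelin layer, read 14.34 to 14.60 (median 14.43) on O4+ and 10.19 to 10.49 (median 10.21) on CD11B+ arrays, a difference of 4.17 ± 0.06 (1.69e-12). Mog, a protein of the outermost layer that appears late in myelination, differed by only 1.82 ± 0.13 (1.11e-07), at 8.09 to 8.45 (median 8.19) against 6.13 to 6.75 (median 6.40). The groups did not overlap for either gene, and the distance between them was wider for Mag. Mbp, which binds the layers of myelin together, differed by 1.04 ± 0.06 on its brightest probe and by 7.34 ± 0.09 on another. With the deposited values, each spot's signal over its array's median, the brightest probe differed by 0.51 and was not called. Mobp, a small myelin protein, was well above background on all O4+ arrays and on no CD11B+ array, but its O4+ arrays were scattered from 7.56 to 11.71 (median 8.60). It was at least 34.1-fold higher in O4+. Opalin was the other myelin gene that no CD11B+ array measured above background.

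For these 4 oligodendrocyte lists, the medians on the slide with both cell types were 4.36 (factors), 4.41 (progenitor), 4.02 (premyelinating) and 2.91 (myelin). Within scan 1 they were 4.12, 3.92, 3.94 and 3.16, and within scan 2 they were 4.70, 4.78, 4.23 and 2.95. The shared slide and scan 1 each hold a single CD11B+ array.

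**Figure D2:**
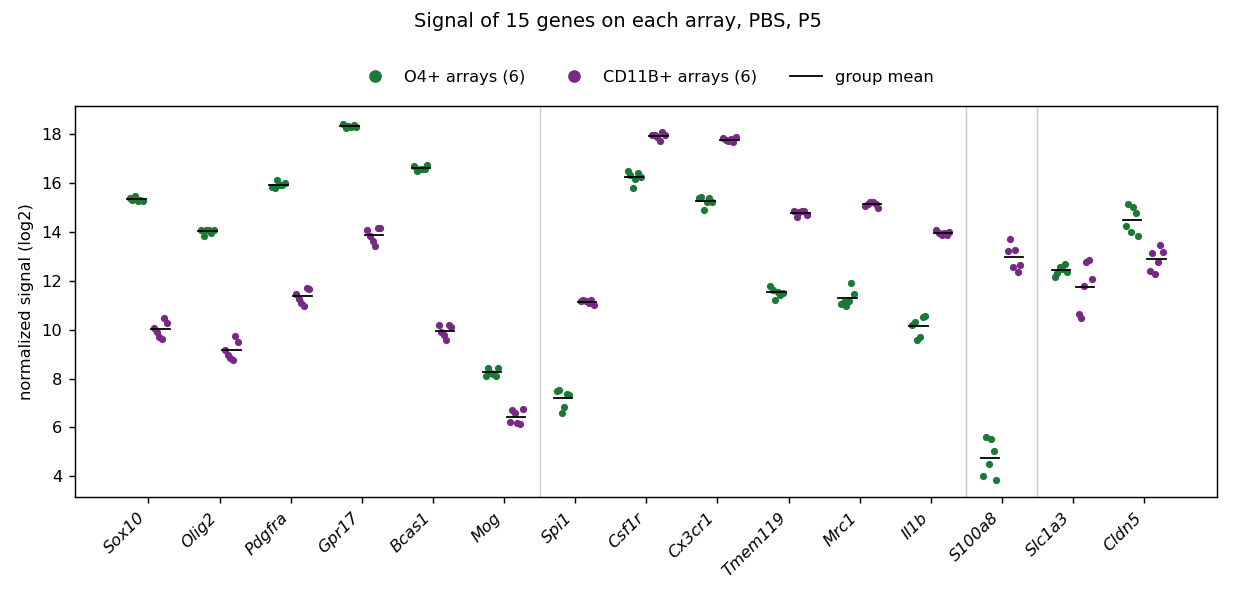
Normalized signal (log2) of 15 genes on each of the 12 arrays, green for O4+ and purple for CD11B+, with a bar at each group mean. The groups do not overlap for the 6 oligodendrocyte genes, the 6 macrophage and microglia genes, S100a8 or Cldn5, while the CD11B+ arrays spread across the O4+ range for the astrocyte gene Slc1a3.

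Macrophage and microglia transcription factors gave the mirror image, with 15 of 15 called higher in CD11B+ cells and a median of -3.34. Spi1, which encodes PU.1, the factor on which all macrophages depend, read 6.58 to 7.52 (median 7.35) on O4+ and 11.03 to 11.21 (median 11.18) on CD11B+ arrays, a difference of -3.96 ± 0.16 (4.79e-10). Irf8, a partner of PU.1, read 10.78 to 11.39 (median 11.28) against 14.48 to 14.60 (median 14.56) and differed by -3.37 ± 0.10 (5.92e-11). The CD11B+ arrays lay within a narrow band for both, and the O4+ arrays spread more. Sall1, a factor that among brain macrophages marks microglia, differed by -2.96 ± 0.08. All 15 factors were still well above background on all 6 O4+ arrays.

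Of 24 homeostatic microglia genes, 23 were called higher in CD11B+ and none in O4+, with a median of -3.19. Cx3cr1, the receptor for fractalkine, read 14.90 to 15.43 (median 15.32) in O4+ and 17.70 to 17.88 (median 17.77) in CD11B+ cells. P2ry12, a nucleotide receptor that guides microglial processes, read 12.12 to 12.70 (median 12.54) against 15.33 to 15.69 (median 15.54). Csf1r, the receptor for the growth factors that keep microglia alive, read 15.80 to 16.48 (median 16.30) against 17.73 to 18.09 (median 17.96), a difference of -1.69 ± 0.11 (3.42e-08). Each was higher on all CD11B+ arrays, yet each was also bright on the O4+ arrays. Siglech, through its brightest probe, was the gene not called.

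The spread of these differences varied by list. The middle 50% of the homeostatic genes lay between -3.38 and -2.98, of the transcription factors between -3.84 and -2.97, and of 13 Toll-like receptors and partners between -3.53 and -3.07. It was wider in the developmental microglia genes (-4.16 to -2.44), the Fc and complement genes (-4.20 to -2.79) and the chemokines and cytokines (-3.96 to -0.80), and the middle of all genes ran from -0.59 to 0.61. The summed signal of the 24 homeostatic genes was 318000 to 414000 (median 384000) on O4+ arrays and 1530000 to 1630000 (median 1580000) on CD11B+ arrays. The brightest Siglech probe, which was not called, gave the largest signal of the O4+ sum, and Csf1r that of the CD11B+ sum. O4+ replicate 3 had the lowest O4+ sum of the homeostatic genes (318000), of the macrophage factors (13100, where the next array had 18200) and of the Toll-like receptors (9240). All 24 homeostatic genes were well above background on all 6 O4+ arrays. The part of microglial RNA in the O4+ samples in the size of these differences was not tested, and in pooled sorted cells fewer cells of a type and less RNA per cell cannot be told apart.

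Promoter sequences from RefSeq (GRCm38.p6, 300 bases around the start) matched 17318 of the array's genes and were searched on both strands for the PU.1 core GAGGAAGT and the SOX core ACAAAG. The PU.1 core was in 9.13% of 1271 genes that were 4-fold higher in CD11B+, in 2.05% of 1804 that were 4-fold higher in O4+, and in 3.46% of all 17318. The SOX core was in 21.3%, 20.1% and 19.2% of the same groups. Among the macrophage factors and homeostatic microglia genes, 2 of 27 with a promoter held the PU.1 core, C1qc and Ctss, and none of 42 genes of the oligodendrocyte lists did. The SOX core did not divide the lists: it was in 7 of the 27 (25.9%) and in 10 of the 42 (23.8%), with Mobp holding 6 copies. The promoters of 3 genes are printed. C1qc and Ctss are the 2 listed genes with the PU.1 core. Mobp is 1 of the 10 oligodendrocyte genes with the SOX core, of which others named here, such as Mag and Tnr, are not printed. Capitals mark the PU.1 core in C1qc and Ctss and the SOX core in Mobp, which on the opposite strand read ACTTCCTC and CTTTGT. Ctss also holds 1 SOX core, left in lower case. C1qc, part of the complement starter C1q (difference -2.93), is at chr4:136892865-136893164, minus strand. Ctss, a lysosomal protease (-2.91), is at chr3:95526536-95526835, plus strand. Mobp is at chr9:120149492-120149791, plus strand. A match is a run of letters and not a shown binding site.
C1qc: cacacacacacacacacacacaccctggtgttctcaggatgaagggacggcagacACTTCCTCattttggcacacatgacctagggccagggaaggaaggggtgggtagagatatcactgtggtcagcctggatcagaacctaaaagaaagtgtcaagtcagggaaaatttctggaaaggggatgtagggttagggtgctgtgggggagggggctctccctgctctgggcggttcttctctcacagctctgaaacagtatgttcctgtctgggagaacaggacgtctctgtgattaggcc
Ctss: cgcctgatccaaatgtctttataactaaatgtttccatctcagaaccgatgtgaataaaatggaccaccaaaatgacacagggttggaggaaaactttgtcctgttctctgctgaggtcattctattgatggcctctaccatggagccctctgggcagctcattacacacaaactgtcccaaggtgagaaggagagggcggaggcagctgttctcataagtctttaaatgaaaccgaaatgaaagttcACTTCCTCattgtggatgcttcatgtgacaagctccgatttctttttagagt
Mobp: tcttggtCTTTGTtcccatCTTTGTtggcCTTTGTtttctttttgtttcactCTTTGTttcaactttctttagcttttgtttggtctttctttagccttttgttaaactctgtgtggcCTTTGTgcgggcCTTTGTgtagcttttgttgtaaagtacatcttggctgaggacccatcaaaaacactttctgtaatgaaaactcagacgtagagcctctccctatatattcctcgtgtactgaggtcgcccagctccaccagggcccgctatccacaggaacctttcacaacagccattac

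Genes of other macrophage states were higher in CD11B+ cells as well. Of 10 genes of border-associated macrophages, which line the meninges and vessels, 10 were called higher in CD11B+, from Stab1 at -3.29 to Ccl24 at -4.88. Their median of -4.43 was beyond the largest homeostatic difference, -3.91 for Cd33. Mrc1, their mannose receptor, read 10.95 to 11.93 (median 11.15) against 14.99 to 15.22 (median 15.14), a difference of -3.84 ± 0.15 (3.63e-10). Lyve1, a hyaluronan receptor, read 8.17 to 9.75 (median 8.74) against 13.33 to 13.58 (median 13.48), a difference of -4.56 ± 0.25 (8.49e-09). The CD11B+ arrays were close to each other in both genes and O4+ replicate 5 had the highest O4+ sum of the list (22300 against a median of 13500). Cd163, a scavenger receptor for haemoglobin, was well above background on 4 of 6 O4+ arrays and differed by -4.85 ± 0.38 (2.71e-07), a size set in part by the background.

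Of 15 genes of developmental and disease-associated microglia, 14 were higher in CD11B+ and 1, the fatty acid carrier Fabp5 (0.57), in O4+, with a median of -3.30. Itgax, the CD11C chain, read 7.79 to 9.11 (median 8.22) against 12.21 to 12.87 (median 12.58), 20.5-fold by medians (5.58e-09). Spp1, the secreted protein osteopontin, differed by -3.71 ± 0.23 (2.72e-08) and Gpnmb, a membrane glycoprotein of phagocytes, by -3.67 ± 0.17 (1.6e-09). No CD11B+ array overlapped the O4+ arrays in these 3 genes. Over the 4 macrophage and microglia lists, the medians on the shared slide lay between -4.27 and -3.34, within scan 1 between -4.47 and -3.04, and within scan 2 between -4.45 and -3.39.

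Neutrophil genes showed some of the largest differences towards CD11B+ cells. Of 9 neutrophil markers, 8 were called higher in CD11B+, with a median of -6.43. S100a8, a chain of the neutrophil protein calprotectin, read 3.86 to 5.59 (median 4.77) on O4+ arrays and 12.37 to 13.73 (median 12.92) on CD11B+ arrays. Its partner S100a9 read 5.51 to 7.43 (median 6.33) against 14.09 to 15.19 (median 14.60). Both were far apart on every array, by -8.21 ± 0.35 (1.03e-09) and -8.16 ± 0.35 (1.13e-09). Camp, an antimicrobial peptide, differed by -6.43 ± 0.28, and Ltf and Ngp, which no O4+ array measured above background, were at least 88.3-fold and 63.6-fold higher in CD11B+. Ly6g, a surface marker of mature neutrophils, was the gene not called (-0.11). The summed signal of the list varied more than that of the microglial lists among CD11B+ arrays, from 28000 to 63100 (median 39700), and was 460 to 735 (median 559) in O4+. S100a9 gave the largest signal of the CD11B+ sum. Of 8 lymphocyte markers, 5 were higher in CD11B+ (23.0% of all genes), with a median of -0.95 (-2.08 with only members well above background). Of these 5, Cd3g was not well above background on any array of either cell type. Cd3d, which no O4+ array measured above background, was at least 9.47-fold higher in CD11B+, and the T cell gene Cd3e (-0.39) was not called. The sums of the list were 1360 to 1590 (median 1470) in O4+ and 6220 to 7140 (median 6610) in CD11B+. The medians of the neutrophil and lymphocyte lists were -6.19 and -1.73 on the shared slide, -5.84 and -1.27 within scan 1, and -6.64 and -1.07 within scan 2.

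Markers of other brain cells showed smaller differences with wider spread. Of 10 astrocyte markers, 5 were called higher in O4+ and none in CD11B+, with a median of 0.83, and without CD11B+ replicate 5 these were 8 and 1.15. Their summed signal was 40900 to 55700 (median 47800) in O4+ and 8130 to 48500 (median 10900) in CD11B+, with Aldoc giving the largest signal in both. Gfap, the intermediate filament of astrocytes, read 6.66 to 8.16 (median 7.59) in O4+ and 6.28 to 9.42 (median 6.88) in CD11B+. Aqp4, the water channel of their endfeet, read 8.22 to 9.92 (median 9.03) against 7.68 to 10.63 (median 8.14). The groups overlapped for both, with differences of 0.29 ± 0.48 and 0.46 ± 0.47 that did not pass, and CD11B+ replicate 5 had the highest signal of all 12 arrays. Without it, Gfap differed by 0.73 and Aqp4 by 0.88, both called, and within scan 1, where it is the only CD11B+ array, they differed by -1.91 and -1.61. Slc1a3, a glutamate transporter, differed by 0.67 ± 0.40 and was not called. Sox9 was highest of the list at 3.33. The astrocyte list's median was 0.88 on the shared slide, -0.46 within scan 1 and 1.01 within scan 2.

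Of 12 neuron markers, 6 were higher in O4+ and none in CD11B+, with a median of 0.88 (7 and 1.22 without CD11B+ replicate 5, and 1.65 with only members well above background). Snap25, a protein of the synaptic release machinery, read 15.30 to 15.82 (median 15.52) against 12.71 to 13.04 (median 12.92), a difference of 2.60 ± 0.09 (2.33e-10). Tubb3, a tubulin of neurons, differed by 1.16 ± 0.31 (0.00617) with overlapping groups, and Rbfox3, the NeuN antigen, by 0.41 ± 0.12 without being called. Dcx, of migrating young neurons, was highest at 3.98, while Slc17a7 was not well above background on any of the 12 arrays and Neurod6 on no O4+ array. The neuron sum was 49400 to 67900 (median 56600) in O4+ and 9300 to 11800 (median 10000) in CD11B+, with Snap25 giving the largest signal. The median of the list was 1.12 on the shared slide, -0.29 within scan 1 and 1.30 within scan 2.

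Vessel genes were higher in O4+ by about a doubling. Of 11 endothelial markers, 9 were called higher in O4+ and none in CD11B+, with a median of 1.05. Cldn5, the tight junction protein of brain endothelium, read 13.85 to 15.13 (median 14.51) against 12.27 to 13.45 (median 12.96), a difference of 1.63 ± 0.28 (0.000259). Cdh5, the cadherin of endothelial junctions, differed by 0.95 ± 0.22 (0.00255), and Pecam1 did not pass (-0.12 ± 0.15). O4+ replicates 3 and 6, which share a slide with CD11B+ replicate 6, had low endothelial sums for their group (32200 and 28700, against a median of 43500). With the slide as a block, Cldn5 was 0.73 and Cdh5 0.23 and neither was called, and the list's median fell from 1.05 to 0.23. Within scan 1 it was 1.18 and within scan 2 it was 0.62. The sums were 28700 to 66600 in O4+ and 14400 to 23100 (median 20200) in CD11B+, with Cldn5 giving the largest signal.

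Of 11 pericyte and fibroblast markers, 4 were higher in O4+ and 1, Anpep (-0.81), in CD11B+ (23.9% and 23.0% of all genes), with a median of 0.96 (9, 1 and 1.32 without CD11B+ replicate 5). No member separated the groups. Rgs5, of pericytes, differed by 1.60 ± 0.37 (0.00252) and was 1.26 and not called with the slide as a block. Col1a1, of fibroblasts, differed by 1.14 ± 0.39 (0.0278) and was not called without O4+ replicate 2 (1.08) or 4 (0.95), or without CD11B+ replicate 1 (0.95), 3 (1.03) or 6 (1.11), nor with the slide (0.85) or scan day (0.57) as a block. Pdgfrb did not pass (-0.04 ± 0.27). The sums were 9960 to 23700 (median 13200) in O4+ and 4060 to 20200 (median 6070) in CD11B+, with Col1a2 giving the largest signal, and the list's median was 0.78 on the shared slide, -0.46 within scan 1 and 1.02 within scan 2.

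Of 6 ependymal and choroid plexus markers, 2 (33.3%) were higher in O4+, near the 23.9% of all genes, with a median of 0.96 (5 and 1.47 without CD11B+ replicate 5). Ttr, the transthyretin made in bulk by choroid plexus, differed by 2.05 ± 0.47 (0.00237) with overlapping groups and was 1.30 and not called with the slide as a block. Foxj1, the factor for motile cilia, differed by 0.88 ± 0.57 and was called only without CD11B+ replicate 5 (1.40). The sums were 32600 to 74800 (median 57700) in O4+ and 6380 to 50700 (median 12100) in CD11B+, and the list's median was 0.96 on the shared slide, -1.07 within scan 1 and 1.37 within scan 2.

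Of 6 erythroid markers, 2 (33.3%) were higher in CD11B+, near the 23.0% of all genes, with a median of -0.33. Hba-a1 and Hbb-bt, of haemoglobin, did not pass (-0.23 ± 0.27 and -0.31 ± 0.27). They differed by -0.01 and -0.09 without CD11B+ replicate 5, and by -1.07 and -1.02, both called, when arrays were scaled to their 75th percentile. Alas2, which starts haem synthesis in red cells, differed by -1.01 ± 0.31 (0.0136) and was -0.75 without that array, and -0.85 and not called with the slide as a block. Epb42 was not well above background on any array. The sums were 45900 to 115000 (median 78200) in O4+ and 67000 to 195000 (median 83900) in CD11B+, with Hba-a1 giving the largest signal. The list's median was -0.26 without CD11B+ replicate 5, -1.04 under the 75th percentile scaling, -0.32 on the shared slide, -1.33 within scan 1 and -0.32 within scan 2. The part of other brain cells, vessels and blood in the differences between the O4+ and CD11B+ samples was not tested.

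**Figure D3:**
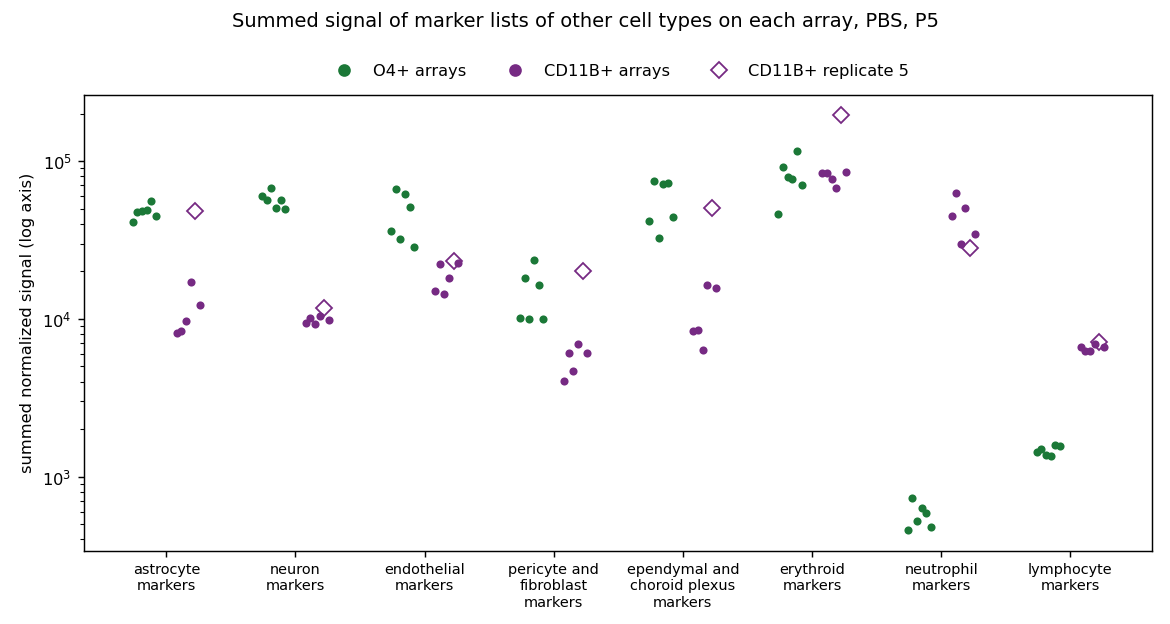
Summed normalized signal (log axis) of the marker lists of 8 other cell types on each of the 12 arrays, with CD11B+ replicate 5 as an open diamond. That array is the highest CD11B+ array for astrocyte (48500), pericyte and fibroblast (20200), ependymal (50700) and erythroid (195000) markers, while neutrophil sums are at least 28000 on every CD11B+ array and at most 735 on every O4+ array.

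Of 16 genes of the interleukin 1 system, 12 were higher in CD11B+ and 2, Il1rap and Il18, in O4+, with a median of -3.04. Il1b read 9.58 to 10.57 (median 10.26) in O4+ and 13.87 to 14.08 (median 13.96) in CD11B+, a difference of -3.82 ± 0.17 (1.13e-09), and Il1a differed by -3.68 ± 0.14 (4.44e-10). The receptors did not follow 1 direction. Il1r1, the receptor that signals, read 5.64 to 6.55 (median 6.24) against 6.07 to 6.50 (median 6.39) and was not called (-0.19 ± 0.16). Il1r2, a decoy that binds without signalling, was higher in CD11B+ (2.63e-08), but only 2 of 6 O4+ arrays were well above background, so the size of the difference was not measured. Il1rap, the second chain of the signalling receptor, was higher in O4+, at 7.52 to 7.97 (median 7.79) against 5.53 to 6.48 (median 5.85), by 1.78 ± 0.16 (1.11e-06).

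Of 23 chemokines and cytokines, 17 were higher in CD11B+ and 5 in O4+, with a median of -3.33. The neutrophil attractants Cxcl1 and Cxcl2 were 18.2-fold and 20.9-fold higher in CD11B+ by medians, and the monocyte attractant Ccl2 by -3.95 ± 0.19. Ccl3 and Ccl4, made by activated macrophages, differed by -3.12 ± 0.18 and -2.97 ± 0.12. The 5 on the O4+ side were Cx3cl1, Cxcl14, Tgfb3, Tgfb2 and Cxcl12, and Il34, a ligand of Csf1r, was not called. For Ccl3, CD11B+ replicate 5 was the lowest of its group at 15.06, where the next array read 15.79.

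Receptors that sense microbes, antibodies and complement were on the CD11B+ side. All 13 Toll-like receptors and partners were called there, with a median of -3.34. Tlr2, a receptor for bacterial lipoproteins, read 10.26 to 11.03 (median 10.80) against 14.14 to 14.38 (median 14.30), a difference of -3.56 ± 0.14 (3.96e-10). Tlr4, the receptor for endotoxin, differed by -3.81 ± 0.10 and Tlr3, for double-stranded RNA, by -2.25 ± 0.19, with 4 of 6 O4+ arrays well above background, so that the background set part of its size. Of 13 Fc and complement genes, 12 were higher in CD11B+, with a median of -3.63, and C1s1 (0.94) was not called. Fcgr4, an activating antibody receptor, read 5.25 to 5.62 (median 5.35) against 9.69 to 9.96 (median 9.79), a difference of -4.42 ± 0.07 (2.56e-12). Fcgr3 and the shared signalling chain Fcer1g differed by -3.63 ± 0.12 and -3.43 ± 0.11. Each CD11B+ array was above each O4+ array for Tlr2, Tlr3, Tlr4, Fcgr3, Fcgr4 and Fcer1g. Over these 4 lists (interleukin 1, chemokines, Toll-like, Fc and complement), the medians lay between -3.67 and -3.12 on the shared slide, between -3.42 and -2.90 within scan 1, and between -3.82 and -3.15 within scan 2.

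Receptors for growth factors and transmitters leaned to O4+ cells. Of 15 ionotropic glutamate receptor subunits, 13 were higher in O4+ and none in CD11B+, with a median of 4.13. Gria2, the subunit that makes AMPA receptors tight to calcium, read 10.15 to 10.39 (median 10.21) against 5.59 to 6.54 (median 6.13), a difference of 4.18 ± 0.13 (9.42e-11). Gria3 and Gria4 differed by 4.61 ± 0.13 and 4.78 ± 0.16. All O4+ arrays were above all CD11B+ arrays for the 3 subunits, and Grin2a and Grin2b were the subunits not called. Of 27 receptor tyrosine kinases, 16 were higher in O4+ and 4 in CD11B+ (23.9% and 23.0% of all genes), with a median of 1.28. Ephb1 was highest at 5.08. The 4 were Mertk (-3.43), Csf1r, Epha5 and Axl. Fgfr1 differed by 2.26 ± 0.20 (8.56e-07). Fgfr2, whose signal promotes myelin growth, did not differ beyond its error at P5 (0.00 ± 0.05), with 7.30 to 7.51 (median 7.43) against 7.36 to 7.51 (median 7.42). Erbb3, a neuregulin receptor, was called at 1.46 ± 0.24 but was well above background on 1 of 6 O4+ arrays and 0 of 6 CD11B+ arrays. Its call was lost with normexp and its offset (0.14) and with the slide as a block (1.35).

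Of 18 purinergic receptors and ion channels, 12 were higher in O4+ and 6 in CD11B+, with a median of 3.42. The 12 were channel and receptor genes such as the inward rectifier Kcnj10, the potassium channel Kcna1 (4.56) and the purinergic receptor P2ry1. The 6 were the purinergic receptors P2ry6, P2rx4 and P2rx7, the proton channel Hvcn1 (-3.88), and Kcnk6 and Kcnk13. P2ry6, which triggers uptake of debris in microglia, read 10.96 to 11.63 (median 11.40) against 14.56 to 14.84 (median 14.78), a difference of -3.37 ± 0.11. The ATP-gated channels P2rx4 and P2rx7 differed by -1.75 ± 0.08 and -1.40 ± 0.18. Of 20 integrins, 9 were higher in each cell type (of all genes, 23.9% in O4+ and 23.0% in CD11B+), with a median of 0.03. The median was -0.31 when arrays were scaled to their 75th percentile and -0.28 with the median over all probes of a gene. Itgam counts on the O4+ side here by its brightest probe alone. Itgb8, which activates TGF-beta, was highest in O4+ at 3.55. On the CD11B+ side, Itga4 differed by -1.58 ± 0.16 and Itga6 by -2.26 ± 0.14, and Itga9 was not called (0.07 ± 0.05). The medians of the glutamate receptor, tyrosine kinase, channel and integrin lists were 4.01, 1.16, 3.49 and -0.08 on the shared slide, 3.02, 0.76, 2.42 and -0.49 within scan 1, and for the last 3 of them 1.05, 3.64 and 0.01 within scan 2, where Gria2 differed by 4.31.

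Genes of cholesterol synthesis leaned to O4+ cells, and genes of lipid uptake and efflux to CD11B+ cells. Of 20 genes of cholesterol synthesis, 17 were higher in O4+ and 1, Ebp (-1.06), in CD11B+, with a median of 1.60. Hmgcs1, an early enzyme of the pathway, read 15.66 to 15.82 (median 15.77) against 13.22 to 14.10 (median 13.40), a difference of 2.26 ± 0.13 (1.16e-08). Sqle, which makes the epoxide that is folded into sterols, read 14.35 to 14.65 (median 14.57) against 11.41 to 12.30 (median 11.51), a difference of 2.91 ± 0.14 (2.79e-09). CD11B+ replicate 5 was the highest CD11B+ array for both and still below every O4+ array. Of 10 genes of lipid uptake and efflux, 9 were higher in CD11B+ and none in O4+, with a median of -1.88, led by the scavenger receptor Cd36 at -4.92. Abca1 and Abcg1, which export cholesterol, differed by -2.33 ± 0.10 and -1.09 ± 0.10, and Npc2, which moves cholesterol out of lysosomes, by -1.86 ± 0.05.

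Of 14 sphingolipid and galactolipid enzymes on the array (Cers1 of the list had no probe), 8 were higher in O4+ and 2 in CD11B+, with a median of 1.01 (0.43 when arrays were scaled to their 75th percentile). Besides the 3 galactolipid enzymes above, members lay on both sides, from Cers4 (2.38) to Cers6 (-2.56). Sptlc2, of the first step, differed by -1.47 ± 0.08, Cers2, which makes the very long chain ceramides of myelin, was not called (0.18 ± 0.07), and Degs2 differed by 1.08 ± 0.24 (0.0021) but by 0.12 and without a call with the slide as a block. The medians of the cholesterol, uptake and sphingolipid lists were 1.58, -2.01 and 0.52 on the shared slide, 1.28, -1.83 and 0.91 within scan 1, and 1.63, -2.02 and 0.77 within scan 2.

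All 18 lysosomal genes were higher in CD11B+, with a median of -2.03, from Cd68 at -3.30 to Lamp1 at -0.59. The proteases Ctsb, Ctsd and Ctsl differed by -1.77 ± 0.10, -2.01 ± 0.09 and -1.86 ± 0.07. Ctsd read 15.27 to 15.86 (median 15.69) against 17.63 to 17.75 (median 17.67), with no overlap. Of 20 cell cycle genes, 14 were higher in CD11B+ and 2, Ccnd2 (2.29) and Ccnd3, in O4+, with a median of -0.90 (-1.48 when arrays were scaled to their 75th percentile). Mki67, present in dividing cells, read 13.11 to 13.45 (median 13.27) against 14.17 to 14.27 (median 14.21), a difference of -0.95 ± 0.06 (3.05e-08), and Top2a differed by -1.31 ± 0.07. Ccnb1 was not called (-0.50 ± 0.04), though its groups did not overlap. The lysosomal and cell cycle medians were -2.23 and -0.86 on the shared slide, -1.83 and -0.84 within scan 1, and -2.25 and -0.88 within scan 2.

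Among 11 reference genes, 1 was higher in O4+ and 3 in CD11B+ (23.9% and 23.0% of all genes), with a median of -0.19. The median was -0.65 when arrays were scaled to their 75th percentile. On the shared slide it was -0.07, within scan 1 -0.16 and within scan 2 -0.11. Actb and Gapdh were not called (-0.19 ± 0.06 and 0.17 ± 0.04). Rpl13, a ribosomal protein, was higher in O4+ by 0.73 ± 0.05 (7.9e-08), and B2m, of the MHC class I complex, was highest in CD11B+ at -2.50. The direction of small differences depends on the scaling: with each array scaled to its 75th percentile, the median over all probes moved from -0.05 to -0.35, Gapdh read -0.78 and Rpl13 -0.25. Actb (-0.65) and Ccnb1 (-0.88) were called under that scaling.

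**Figure D4:**
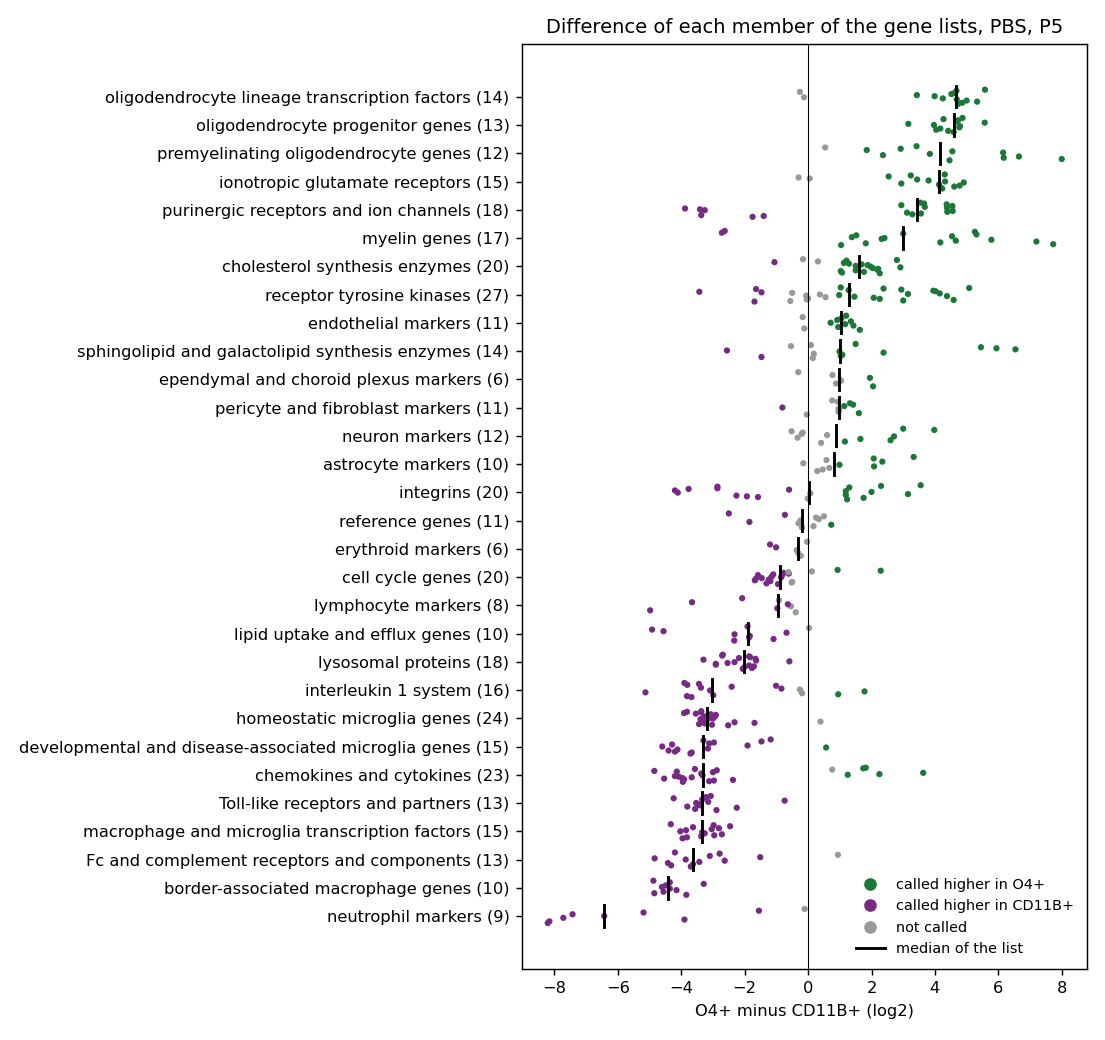
Each point is a member of 1 of 30 gene lists, placed by its O4+ minus CD11B+ difference (log2), with the number of members in parentheses and a black bar at each median. Lists run from neutrophil markers (median -6.43) to oligodendrocyte transcription factors (4.65), and the macrophage, microglia and immune receptor lists have medians between -4.43 and -3.04.

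Ligands and receptors on opposite sides were few. Of 40 pairs of a ligand and its receptor, 22 had both genes called in 1 direction, 9 had a gene that was not called, and 9 were opposite, 3 of them with both genes past the 4-fold rule. Cx3cl1, fractalkine, was higher in O4+ at 12.80 to 13.02 (median 12.96) against 9.02 to 9.80 (median 9.32), by 3.63 ± 0.12 (1.06e-10), and its receptor Cx3cr1 was on the CD11B+ side (-2.52 ± 0.09). Cd200, a membrane protein that calms myeloid cells, was higher in O4+ by 3.15 ± 0.14 (1.79e-09), and its receptor Cd200r1 was on the CD11B+ side (5.83e-08), by a size that was not measured, since only 2 of 6 O4+ arrays were well above background. Pros1, a ligand of the TAM receptors, was on the CD11B+ side (-2.38 ± 0.08) and the TAM receptor Tyro3 on the O4+ side (4.02 ± 0.21, or 19.1-fold by medians). In the fractalkine and Cd200 pairs, the ligand was the O4+ gene and the receptor the CD11B+ gene.

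The 12 largest differences towards O4+, among named genes well above background on all 12 arrays, ran from AI314604 (8.23 ± 0.17) to Ugt8a. Next to Mbp, Bcas1 and Fa2h they held Nfasc (6.75), the neurofascin that joins glia to axons, Adamts4 (6.23), a protease of brain matrix, the growth factor Bmp4 (6.17), Bfsp2 (6.10), the small GTPase Rab33a (6.09) and Zfp365 (5.99). The 12 largest towards CD11B+ began with S100a8 and S100a9. They went on with the stefins Cstdc5 (-8.10) and Stfa2 (-6.75), then Camp, Plbd1 (-5.76), the lectin Cd209g (-5.47), Plac8 (-5.26), Gm10693 (-5.24), the cytokine Tnfsf18 (-5.23), the lectin Clec10a (-5.11) and the receptor Gpr132 (-5.04). Among probes measured on all arrays of 1 cell type and none of the other, the largest bounds in O4+ after Enpp6 were at least 117-fold for the kinase Sgk2, 87.4-fold for 9530059O14Rik, 40.9-fold for the protease Tmprss5, 34.1-fold for Mobp, 29.1-fold for Epcam, 25.9-fold for the choline transporter Slc5a7 and 24.2-fold for Tmeff2. In CD11B+ they were at least 227-fold for Cstdc4, 81.8-fold for Retnlg, 74.1-fold for Sirpb1b, 55.3-fold for Rnase2a, 43.3-fold for Ear12 and 39.4-fold for Lilra6, beside Ltf and Ngp. Of the probes called higher in O4+, 1122 were well above background on all 6 O4+ arrays and on no CD11B+ array, and of those higher in CD11B+, 462 were the other way round.

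At P10, in arrays that share no sample with P5, 12353 probes (22.2%) were higher in O4+ and 11263 (20.2%) in CD11B+. Of the P5 probes, 9124 of the 11021 O4+ ones had the same call at P10 and 30 the opposite one, and 8860 of the 12157 CD11B+ ones had the same call and 165 the opposite. Counted as genes, 49.2% were called at P10 and 20.5% by the 4-fold rule, which 4818 probes (8.65%) passed in O4+ and 4301 (7.72%) in CD11B+. The cell type difference itself changed with age at 15656 probes (28.1%) and 8558 genes (35.5%) by the interaction term, and at 10654 probes with the slide as a random block. Mog grew from 1.82 to 5.28 (adjusted p of the change 7.26e-08). Mag went from 4.17 to 5.02 (0.0191), which did not pass with the slide as a random block (0.102). The myelin list's median was 5.19 at P10, with 16 of 17 higher in O4+ (26.8% of all genes) and none in CD11B+ (22.4%). Pdgfra went from 4.59 to 2.82 (2.88e-06) and the progenitor list from 4.59 to 3.51.

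On the CD11B+ side, the differences of microglial genes were larger at P10. The homeostatic list had a median of -4.73 there, and 22 of its 24 genes passed the test of the change. Cx3cr1 went from -2.52 to -4.38 (8.72e-09), Il1b from -3.82 to -6.42 (7.68e-06) and Ccl3 from -3.12 to -5.68 (8.87e-08). The interleukin 1 list as a whole had a smaller median at P10, -1.84 against -3.04, with 11 of 16 genes higher in CD11B+. Border-associated genes had a median of -3.88 at P10, and 3 of 10 passed, near the 35.5% of all genes. Neutrophil markers had a median of -6.77 at P10 and none of 9 passed. The cell cycle list went from -0.90 to -2.21, with Mki67 at -2.73 (5.62e-11). Fgfr2, even at P5, differed by 1.18 at P10 (4.93e-09), and Cers2 went from 0.18 to 1.41 (3.34e-09). The lysosomal protease Ctsl went the other way, from -1.86 to -0.71 (7.45e-08).

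**Figure D5:**
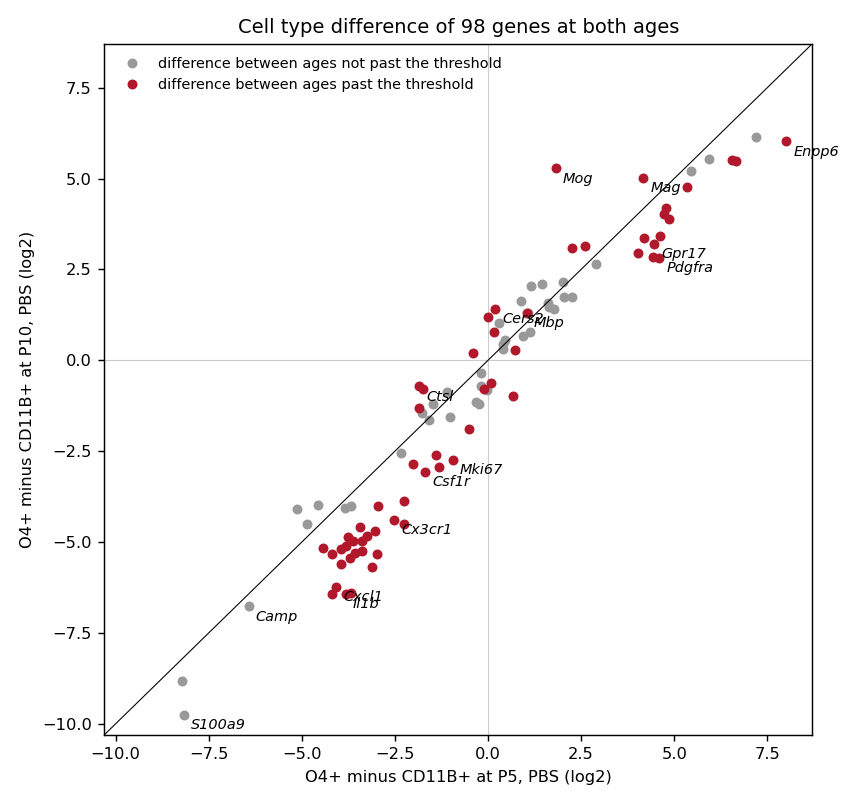
O4+ minus CD11B+ difference (log2) of 98 key genes of the lists at P5 (horizontal) and P10 (vertical), both with PBS; red points passed the test of a change between the ages, and the line marks equal values. Mog (1.82 and 5.28) lies above the line, and microglial genes such as Cx3cr1 and Il1b lie below the line, with larger negative differences at P10.

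In pups given IL1B, also without a shared sample, 11009 probes (19.8%) were higher in O4+ and 13586 (24.4%) in CD11B+ at P5, and the second count was 25911 when arrays were scaled to their 75th percentile. Together they were 44.2% of probes, and 49.4% of genes were called. By the 4-fold rule, 4795 probes (8.61%) were higher in O4+ and 3183 (5.72%) in CD11B+. Among genes these were 2677 (11.1%) and 1649 (6.84%). The cell type difference changed with treatment at 5965 probes and 3916 genes (16.2%), and at 4210 probes with the slide as a random block. The homeostatic list had a median of -1.79 with IL1B, with 23 of 24 higher in CD11B+ (24.7% of all genes), and 23 genes passed the test of the change. Tmem119, a surface protein of microglia, went from -3.26 with PBS to -1.89 (6.09e-08) and the Fc receptor Fcgr3 from -3.63 to -2.19 (1.25e-06). Il1rap, higher in O4+ with PBS, differed by 0.22 with IL1B (0.000119). The oligodendrocyte factors and progenitor genes had medians of 4.51 and 4.96, and none of their members passed the test of the change. Mag went from 4.17 to 3.17 (8.41e-06) and S100a9 from -8.16 to -5.04 (0.0146).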

How the data were processed

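Total RNA of sorted cells was read on 48 Agilent arrays, 12 of them compared here. Per the file headers, the scanner files come from Feature Extraction 10.7.3.1, and gProcessedSignal is an intensity with background subtracted and no normalization between arrays. The deposited matrix holds a ratio, each spot's processed signal over its array's median, and was used as an alternative. Control spots and 278 non-uniform spots (63 on the 12 arrays) were left out, log2 values were quantile normalized over 48 arrays, and spots of a probe were averaged. The O4+ and CD11B+ groups were tested per probe by limma 3.58.1 (R 4.3.3), with Benjamini-Hochberg adjustment. Called probes have an adjusted p under 0.05 and a ratio of medians over 1.5. Accessions in RefSeq named 27235 probes, and the others kept file names. A gene takes its probe of highest mean over 48 arrays. Genes named by rule are the 12 largest differences and 8 largest bounds each way, key genes of the lists and opposite ligand pairs. Other list members, such as a list's extremes and exceptions, were named after their values were seen. The gene lists and their member genes were chosen with earlier results of these data known. Alternatives changed scaling, background, test, threshold, blocks and arrays used. The values of 4 list members are not reported here, though they count in the results of their lists. In simulated data, 0.67 of probes changed by 1 log2 unit and 0.85 of those changed by 2 were called. The simulation changed a far smaller part of the probes than was called here and took its spreads from the CD11B+ arrays. Its shares are therefore not the part of true differences found here, and a probe that was not called may still differ. The R package data.table (version 1.17.8), Python 3.11.15 and matplotlib 3.10.9 were also used.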

Additional observations from a re-analysis of the deposited data

Results flagged for a closer look

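In 45 of 334 groups of 6 arrays, 1 array lay far from the other 5 by Dixon's test, and chance flags about 1 in 20 groups. CD11B+ replicate 5 was that array in 27 of the 45. Its log2 signals were Alas2 11.40 (nearest 10.02), Ccl3 15.06 (nearest 15.79), Cd200r1 6.74 (nearest 7.69), Cers2 10.81 (nearest 11.07), Fgfr1 11.77 (nearest 10.63), Hba-a1 16.98 (nearest 15.80), Hbb-bt 15.94 (nearest 14.77), Hmgcs1 14.10 (nearest 13.51), Lilra6 7.82 (nearest 8.91), Mag 10.49 (nearest 10.28), P2rx4 13.06 (nearest 13.23), Ptprz1 13.49 (nearest 12.14), Rbfox3 8.80 (nearest 8.24), Rgs5 10.19 (nearest 9.02), Rpl13 17.05 (nearest 16.91), Siglech 16.31 (nearest 16.58), Sqle 12.30 (nearest 11.57), Tlr3 5.56 (nearest 6.36), Tubb3 10.55 (nearest 9.06) and Tyro3 10.43 (nearest 9.32). Its summed signals were oligodendrocyte progenitor genes 73700 (nearest 36800), astrocyte markers 48500 (nearest 17000), pericyte and fibroblast markers 20200 (nearest 6930), erythroid markers 195000 (nearest 85700), ependymal and choroid plexus markers 50700 (nearest 16300), cholesterol synthesis enzymes 89200 (nearest 66900) and cell cycle genes 184000 (nearest 176000).

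The others were spread over further arrays. CD11B+ replicate 2 stood apart in log2 signal of Mobp 2.98 (nearest 1.52). CD11B+ replicate 3 stood apart in log2 signal of Il1r1 6.07 (nearest 6.35) and Sgk2 2.02 (nearest 1.66). CD11B+ replicate 4 stood apart in log2 signal of Tmeff2 2.05 (nearest 3.46). CD11B+ replicate 6 stood apart in log2 signal of Cd3e 9.35 (nearest 9.88), Rnase2a 8.81 (nearest 9.21) and Tmprss5 2.35 (nearest 1.75). CD11B+ replicate 6 stood apart in the summed signal of border-associated macrophage genes 212000 (nearest 235000). O4+ replicate 2 stood apart in log2 signal of Cd163 1.60 (nearest 3.63) and Ngp 2.18 (nearest 1.67). O4+ replicate 3 stood apart in log2 signal of Ctsl 14.42 (nearest 14.75), Fcgr3 9.46 (nearest 9.96) and Sall1 9.30 (nearest 9.58). O4+ replicate 3 stood apart in the summed signal of macrophage and microglia transcription factors 13100 (nearest 18200). O4+ replicate 4 stood apart in log2 signal of Retnlg 3.42 (nearest 2.15) and Sptlc2 8.61 (nearest 8.22). O4+ replicate 6 stood apart in log2 signal of Actb 18.42 (nearest 18.32) and Cd200 11.78 (nearest 11.61).

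The cell type difference at P5 was not that at P10 at 15656 probes, and the PBS difference was not that with IL1B at 5965 probes, by the interaction term in limma. Among genes named here, the change from P10 to P5 was over 4-fold for Il1b (2.60), Ccl3 (2.57), Ccl4 (2.35), Cxcl1 (2.15) and Mog (-3.46). Il1a (2.71) and Cxcl2 (2.23) were well above background on 5 and 4 of 6 O4+ arrays at P10, so the background sets part of their change. Sgk2 (2.54) and 9530059O14Rik (2.46) were well above background on no CD11B+ array at P5, and Tlr3 (2.25) on 1 of 6 O4+ arrays at P10, so the size of their change is set by the background and was not measured. Between PBS and IL1B it was over 4-fold for S100a9 (-3.12).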

How the results depend on the processing

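Of 137 probes of named genes, 115 kept their direction and their side of the threshold under all alternatives at P5 with PBS. With the slide as a block, 8 lost their call, by the adjusted p alone, since the ratio of medians stayed that of all arrays compared. With each array scaled to its 75th percentile, 4 gained a call and 2 reversed. Gapdh went from 0.17 to -0.78 under that scaling and to -0.89 with the deposited matrix, and Rpl13 from 0.73 to -0.25 and -0.36. The brightest Siglech probe went from 0.39 to -0.61 with the matrix. The brightest Mbp probe went from 1.04 to 0.51 with the matrix and was not called. With the slide as a random block, the test of a change between ages passed at 10654 probes (15656 without it) and that between treatments at 4210 (5965 without it). The age changes of Cd3e, Ear12, Fa2h, Fcgr4, Gria4, Itgax, Mag, Mbp, Olig1, Pecam1, Plac8, Ptprz1, Slc1a3, Slc5a7, Snap25, Sox10 and Spp1 no longer passed there. Changes of single genes between treatments were not fitted with that block. Under the 75th percentile scaling, the change of Rpl13 between ages went from 0.45 to -0.10, and the age changes of Ctsd (0.84 to 0.23), Ear12, Fa2h, Gria4, Olig1, Ptprz1, Slc1a3 and Sox10 no longer passed. The cause was not tested.

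With normexp background correction and its offset of 50, 7445 probes were higher in O4+ (11021 without it) and 7628 in CD11B+ (12157 without it). By the 4-fold rule these were 2046 and 1512. With IL1B, 25911 probes were higher in CD11B+ under the 75th percentile scaling. That scaling moved the median over all probes from -0.05 to -0.35, and the matrix moved it to -0.45. With the matrix, 9600 probes were higher in O4+ and 18227 in CD11B+, which is 34.5% on the O4+ side against 47.5%. Leaving out 1 array at a time gave 10786 to 11307 probes higher in O4+ and 11745 to 13005 in CD11B+, and 4522 to 4703 and 3329 to 3440 by the 4-fold rule.

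List medians moved by more than the spread between arrays as follows, and the cause was not tested. Under the 75th percentile scaling they were 5.17 for sort antigens (5.45 without it, a list whose members are meant to differ in both directions), -3.70 for macrophage factors, 3.97 for progenitor, 3.65 for premyelinating, -3.74 for homeostatic and for developmental microglia, -1.04 for erythroid, -3.73 for chemokines, -3.55 for Toll-like, -3.96 for Fc and complement, 1.23 for cholesterol, -2.39 for lipid uptake, 0.43 for sphingolipid, -2.81 for lysosomal, -1.48 for cell cycle and -0.65 for reference genes. With the median over all probes of a gene, premyelinating was 3.49, developmental microglia -3.61 and cell cycle -1.12. With only members well above background, myelin was 3.58, neuron 1.65 and lymphocyte -2.08.

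Alternatives by slide, by scan day and without 1 array were chosen for lists after seeing the data. Within scan 1, the astrocyte (-0.46), neuron (-0.29), pericyte (-0.46), ependymal (-1.07) and integrin (-0.49) medians turned negative. There sort antigens were 5.06, oligodendrocyte factors 4.12, progenitor 3.92, premyelinating 3.94, erythroid -1.33, Toll-like -3.09, tyrosine kinases 0.76, glutamate receptors 3.02, channels 2.42, cholesterol 1.28 and lysosomal -1.83. With the slide as a block, and on the slide with both cell types, endothelial was 0.23, lymphocyte -1.73, lipid uptake -2.01, sphingolipid 0.52, lysosomal -2.23 and reference -0.07. Within scan 2, lipid uptake was -2.02, sphingolipid 0.77 and lysosomal -2.25. Without CD11B+ replicate 5, 8 lipid uptake genes (9 with it), 13 cell cycle genes (14) and 5 tyrosine kinases (4) were higher in CD11B+, and 6 chemokines and cytokines (5) and 1 Fc and complement gene (none) in O4+.

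The study gives the same pups as the source of both cell types, and the labels do not say which arrays share a pool. Same-numbered O4+ and CD11B+ arrays were not treated as pairs. Their deviations from the group mean correlated by 0.36, 0.24, 0.16, 0.05, 0.26 and 0.19 over 26505 probes, and the same number was the best match for 5 O4+ and 4 CD11B+ arrays. With the replicate number as a block, 11041 and 12187 probes were called (4593 and 3371 by the 4-fold rule), and all named probes kept their P5 call. The change between ages then passed at 15903 probes (15656 without it) and that between treatments at 5285 (5965 without it), and the age change of Fcgr4 no longer passed (0.0552).

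Signal over background limits what can be said of genes that only 1 cell type shows. Among the 12 arrays, the 2 cell types share only 1 slide, with 3 arrays. Scan 1 holds a single CD11B+ array, so slide, scan day and that array cannot be told apart there. Array signal does not give molecules per cell.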
